A study of Mus musculus with 22 samples.

Results

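The genes described here are 42 genes of DNA damage signalling and repair, chosen by symbol as the checkpoint, homologous recombination, Fanconi, mismatch, end joining and base excision genes, and all 42 were found among the 55335 genes of the expression table. RNA-seq was carried out on 22 libraries of mouse embryos, each made from 15 pooled embryos, to ask how transcription changes when the histone variant H2A.Z is depleted. The embryos came from superovulated B6D2F1 females, 8 weeks old, mated with B6D2F1 males, and were cultured from the zygote stage. They were collected at 44 h (2-cell embryos), 78 h (morulae) and 94 h (blastocysts) after the hCG injection. In the KD groups, zygotes had received about 10 pL of a mix of siRNAs against H2A.Z at 20 µM, injected at 20 to 22 h after hCG, whereas control embryos without injection are described for quantitative PCR, and for the control embryos of these libraries the label reads control only and no treatment is stated. There were 4 control and 3 KD libraries of 2-cell embryos, 4 and 3 of morulae, and 4 and 4 of blastocysts. Replicate numbers come from the sample titles and are not consecutive, with control replicates 1, 2, 4 and 5 and KD replicates 1, 2 and 4 of 2-cell embryos, control replicates 1, 2, 7 and 8 and KD replicates 1, 2 and 6 of morulae, and replicates 1, 4, 5 and 6 of both blastocyst groups. Values are given below in this order. Nothing in the labels says that the libraries of a group came from separate collections of embryos, so that p-values measure only the spread between these libraries.

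Damaged DNA is recognised by sensor proteins, which recruit the kinases ATM and ATR, and these activate the checkpoint kinases that hold the cell cycle while repair proceeds. A break through both strands is mended either by homologous recombination, which copies the sister chromatid and serves in S and G2 phase, or by end joining, in which the Ku proteins hold the broken ends for ligation, whereas crosslinks, mismatched bases, damaged bases and breaks of one strand each have their own repair genes. The embryo begins with products inherited from the oocyte, and H2A.Z, a variant of histone H2A, is placed around transcription start sites. The values are FPKM, read fragments corrected for the length of the transcript and the size of the library, so that levels can be set beside each other within a library.

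H2afz, which encodes H2A.Z (ENSMUSG00000037894.13, chromosome 3, 137864487 to 137866922 on GRCm38), is given first because its RNA is the one aimed at. Its level was 1244, 1236, 905 and 1178 FPKM in control and 415, 139 and 112 in KD 2-cell embryos, 1158, 1336, 1511 and 1421 FPKM in control and 30.3, 25.7 and 29.0 in KD morulae, and 2656, 2431, 1945 and 2055 FPKM in control and 64.2, 67.2, 53.2 and 57.6 in KD blastocysts. Every KD library lay below every control library of its stage, and KD replicate 1 of the 2-cell stage was the highest of the KD libraries. The log2 fold change was -2.53 at the 2-cell stage (standard error 0.38, adjusted p = 0.544 from limma), -5.41 in morulae (standard error 0.17, adjusted p = 9.72e-08) and -5.19 in blastocysts (standard error 0.20, adjusted p = 3.63e-08). H2afv, the other gene for H2A.Z, also fell, by 2.94 on the log2 scale in morulae and by 1.86 in blastocysts (adjusted p = 2.92e-06 and 7.98e-05).

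The stage labels were compared with marker genes. The sum of 5 markers of 2-cell embryos was 222, 222, 206 and 183 FPKM in control 2-cell embryos, 4.74, 3.87, 7.45 and 7.61 in control morulae and 1.02, 1.87, 2.05 and 3.01 in control blastocysts. The sum of 6 trophectoderm markers, whose most abundant gene in morulae and blastocysts was Krt18, was 7.21, 9.92, 15.2 and 11.7 FPKM in control 2-cell embryos, 131, 109, 129.9 and 146 in control morulae and 997, 1474, 1311 and 989 in control blastocysts. Control libraries of the 3 stages did not overlap in either sum. Transcripts kept from the oocyte, such as Oosp1 and Gdf9, had a summed level of 999, 909, 829 and 741 FPKM in control 2-cell embryos and of 10.3, 6.96, 4.79 and 6.54 in control morulae. In the morula and blastocyst groups, the 8 markers of cumulus and granulosa cells summed to between 0 and 0.168 FPKM in every library. In 2-cell embryos that sum was 2.97, 1.45, 1.33 and 1.12 FPKM in control and 0.971, 3.39 and 0.833 in KD libraries, with Tnfaip6 as the most abundant gene.

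Markers also differed between control and KD embryos of the same label. In blastocysts, the trophectoderm sum was 997, 1474, 1311 and 989 FPKM in control and 584, 741, 784 and 604 in KD libraries, which did not overlap. Of its 6 genes, 1 fell (Krt18, -1.02 on the log2 scale, adjusted p = 0.00126) and 1 rose (Tfap2c, 0.96, adjusted p = 0.00675), and 0 of them were at 0 in all libraries of either blastocyst group. The 2-cell marker sum was 1.02, 1.87, 2.05 and 3.01 FPKM in control and 4.25, 8.15, 5.81 and 8.23 in KD blastocysts, and 2 of its 2 tested genes rose, Tdpoz1 and Zfp352. In morulae, the sum of 5 inner cell mass markers was 124, 134, 141 and 168 FPKM in control and 44.1, 37.0 and 53.2 in KD libraries, and Nanog, its most abundant gene, fell by 2.23 on the log2 scale (adjusted p = 0.00645). The other genes of that list did not pass in morulae, where Pou5f1 had a negative value (-0.49) and Klf17 and Fgf4 positive values (0.30 and 0.31). In blastocysts, Klf17 rose (1.17, adjusted p = 0.00106), and Pou5f1, Nanog and Sox2 did not pass (0.82, 0.29 and -0.18). The part of these differences in the values given next was not tested. In libraries of whole embryos, fewer cells of a type and less RNA per cell cannot be told apart. The authors report that the KD reduced the share of embryos forming blastocysts, with arrest at the morula stage. In the KD blastocyst libraries, a selected or delayed set of embryos and an effect on single genes cannot be told apart.

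The repair genes were expressed at low to moderate levels at every stage. In control embryos, 35 of the 42 genes averaged at least 1 FPKM in 2-cell embryos, 36 did in morulae and 39 in blastocysts, and 10, 12 and 7 of them exceeded 10 FPKM. In KD embryos, 35, 29 and 34 genes had a mean of at least 1 FPKM. The highest mean belonged to Brca2 in 2-cell embryos (81.5 FPKM in control), to Chek2 in morulae (49.3) and to Xrcc5 in control blastocysts (21.2), whereas in KD blastocysts it belonged to Msh6 (24.5). The lowest was that of Fanci in 2-cell embryos (0.445 FPKM in control), Rad51b in morulae (0.202) and Lig4 in blastocysts (0.474). For each comparison, genes with at least 1 FPKM in at least 3 of its libraries were tested. Libraries of both groups counted together, so that a gene could enter only through the group where it was high. Among genes that passed after KD, this was so for Xrcc3 in morulae and for Rad51b and Fancd2 in blastocysts. Between control stages it was so for others, such as Mdc1 and Rad51b. A change of such a gene is not independent of the filter.

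The first question was how these genes change in control embryos between the stages. From the 2-cell stage to the morula, 18 of the 40 genes tested rose and 16 fell at an adjusted p under 0.05, where 43% of all 13655 genes rose and 40.3% fell. In this and the following comparisons, a share near that of all genes is not a result about these genes. The median log2 fold change was -0.19 over these genes and 0.097 over all genes tested. The counts by role rest on few genes each, and differences between roles were not tested. All 6 genes of mismatch and base excision repair rose, as did 3 of the 4 end joining genes (the exception, Lig4, fell by 1.32 on the log2 scale). Of the remaining roles, 3 of the 4 genes of the chromatin response and 4 of the 7 genes of break sensing and checkpoints fell. Among the homologous recombination genes, 4 rose and 6 fell of 11 tested, and among the Fanconi genes 3 rose and 2 fell of 8.

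The largest rises to the morula were those of Fancl, Xrcc1 and Rad52. Fancl, the ubiquitin ligase of the Fanconi pathway, went from 0.625, 0.612, 1.25 and 0.954 to 13.0, 14.3, 15.9 and 14.2 FPKM (log2 fold change 3.06, standard error 0.17, adjusted p = 1.07e-08). Xrcc1, the scaffold of single-strand break repair, went from 0.757, 1.03, 2.19 and 2.10 to 25.8, 14.0, 10.3 and 8.25 FPKM, with morula replicate 1 well above the other morula libraries (2.56, standard error 0.27, adjusted p = 2.78e-06). Rad52, which anneals single-stranded DNA, went from 1.32, 0.944, 1.65 and 2.18 to 15.2, 10.4, 9.26 and 10.9 FPKM (2.30, standard error 0.18, adjusted p = 1.68e-07). For none of these genes did the libraries of the stages overlap. The largest falls were those of Brca2, Chek1 and Mdc1. Brca2, a gene of homologous recombination, had the highest level of all 42 genes in 2-cell embryos and fell from 61.5, 96.3, 112 and 56.3 to 13.5, 12.8, 7.16 and 6.29 FPKM (-2.93, standard error 0.26, adjusted p = 5.02e-07). Mdc1, the adaptor that binds phosphorylated H2AX, fell from 3.18, 2.83, 3.59 and 3.48 to 0.772, 0.505, 0.601 and 0.432 FPKM (-1.44, standard error 0.13, adjusted p = 5.98e-07). Chek1, the checkpoint kinase downstream of ATR, had a log2 fold change of -1.46 with a standard error of 0.15 (adjusted p = 2.01e-06).

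From the control morula to the control blastocyst, 7 of 38 genes rose and 11 fell, beside 27.6% and 28.8% of all 11849 genes tested. The medians were -0.037 for these genes and -0.025 for all genes. All 3 end joining genes tested rose, the DNA-binding Ku proteins Xrcc5 and Xrcc6 and the ligase partner Xrcc4, whereas 4 of the 6 mismatch and base excision genes fell. Rad51b, which acts in homologous recombination, rose from 0.211, 0.0360, 0.224 and 0.336 to 3.34, 3.50, 3.09 and 1.70 FPKM (log2 fold change 1.64, standard error 0.19, adjusted p = 1.82e-05), and Xrcc5 from 6.95, 5.78, 5.68 and 6.30 to 15.4, 24.5, 25.4 and 19.6 FPKM (1.53, standard error 0.16, adjusted p = 8.24e-06). Xrcc4 followed with 0.93 (standard error 0.23, adjusted p = 0.00466). The largest falls were those of Chek2, Ung and Xrcc1. Chek2, the checkpoint kinase downstream of ATM, fell from 50.9, 45.5, 43.5 and 57.2 to 7.79, 10.9, 17.4 and 12.1 FPKM (-2.08, standard error 0.19, adjusted p = 4.18e-06). Ung, which removes uracil from DNA, fell from 42.2, 23.9, 14.8 and 13.5 to 2.40, 5.27, 7.16 and 4.85 FPKM (-2.06, standard error 0.30, adjusted p = 0.000128), and Xrcc1 gave -1.77 (standard error 0.28, adjusted p = 0.000206). For all of these genes, the libraries of the 2 stages were apart. Chek2 and Xrcc1 had thus risen from the 2-cell stage to the morula before they fell, as had Ung.

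The effect of the KD was then compared at each stage. In 2-cell embryos, 0 of 38 tested genes passed an adjusted p of 0.05 in limma, nor did any of all 12160 genes of the comparison. An unadjusted p under 0.05 was found for 2 of these genes, where 5.76% of all genes had one. They were Chek2, with 20.4, 22.1, 39.9 and 32.6 FPKM in control and 15.2, 18.1 and 19.3 in KD libraries (log2 fold change -0.57, adjusted p = 0.828), and Rnf8, a ubiquitin ligase at broken DNA, with 13.3, 14.4, 15.5 and 16.3 FPKM in control and 13.0, 9.17 and 9.92 in KD libraries (-0.39, adjusted p = 0.828). For both genes the KD libraries lay below all control libraries, by a small margin for Rnf8, where the groups overlapped after scaling. Rnf8 shares 13.2% of its exon bases with Gm28043 on the same strand. The median log2 fold change was 0.054 over these genes and 0.0036 over all genes, and the standard errors of these genes had a median of 0.21. Rad51b, Fance, Fanci and Ogg1 did not reach the filter at this stage.

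In morulae, 3 of 36 genes fell after KD and 0 rose, beside 9.05% and 4.22% of all 10989 genes tested. For these genes that is 8.33% lower, a share near that of all genes in this fit. With each library left out in turn, 2 to 6 of these genes fell. Of all genes, 412 to 1186 fell and 140 to 558 rose in these fits, in place of 995 and 464. With FPKM as deposited, 8 of these genes and 1553 of all genes fell, in place of 3 and 995. The 3 were Xrcc5 and the homologous recombination genes Xrcc3 and Rad54l. Mean FPKM in control and KD morulae was 6.18 and 2.42 for Xrcc5, 2.46 and 0.758 for Xrcc3, and 4.33 and 1.91 for Rad54l. With 1 added to each value before taking log2, which understates changes of low genes, none of the 42 genes passed and changed over 2-fold. On this scale, 2.59% of all genes did so in the lower and 1% in the higher direction. The median log2 fold change was -0.16 over these genes, of which 25 of 36 had a negative value, and 0.015 over all genes tested. Atr, Mdc1, Rad51b, Fancf, Fancg and Lig4 were not tested in morulae.

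In blastocysts, 4 of 39 genes rose after KD and 8 fell, that is 10.3% and 20.5%, beside 16.7% and 19.8% of all 11828 genes tested. The share that fell is near that of all genes, and the share that rose is below it. On the same log2 scale, which understates changes of low genes, 3 genes changed over 2-fold in the higher direction and 5 in the lower. Of all genes, 6.1% and 7.76% did. Chek2, Rad52, Xrcc1 and Ung rose, and Rad51b, Rad54l, Xrcc2, Fancd2, Fancg, Xrcc4, Xrcc5 and Xrcc6 fell. By role, all 3 end joining genes tested fell, and of mismatch and base excision repair 2 of 6 rose and 0 fell. Homologous recombination had 1 gene higher and 3 lower of 12, and the Fanconi group 2 lower and 0 higher of 8. The median log2 fold change was -0.20 over these genes and 0.0047 over all genes tested. Mdc1, Fancf and Lig4 were not tested in blastocysts.

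**Figure D1:**
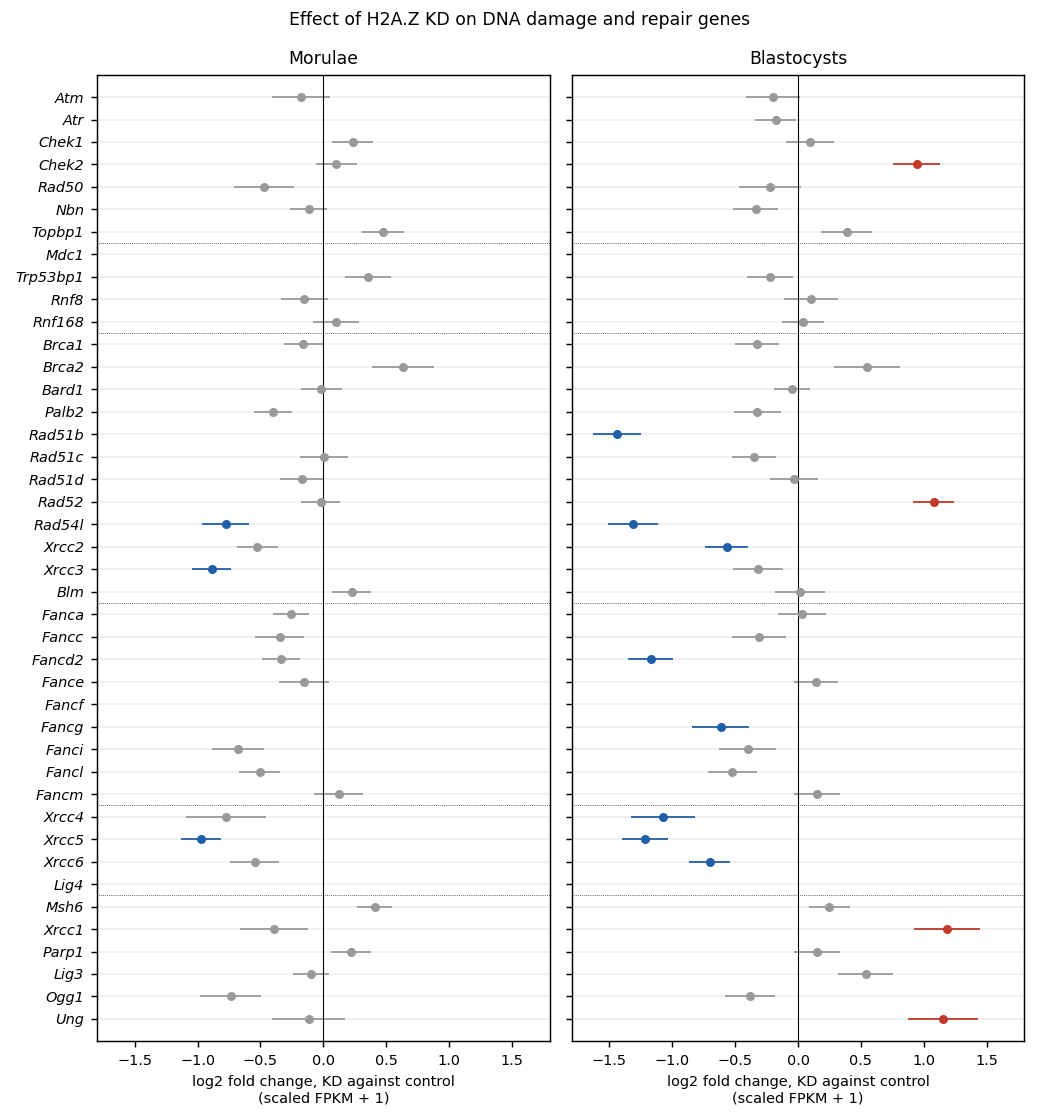
Log2 fold change of each of the 42 genes after KD in morulae (left) and blastocysts (right), with bars for the standard error of limma, and dotted lines between the roles, from break sensing at the top to mismatch and base excision repair at the bottom. Red points rose and blue points fell at an adjusted p under 0.05, grey points did not pass, and genes below the filter have no point, so that 3 blue points stand in morulae and 8 blue and 4 red points in blastocysts.

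Among the genes of break sensing and checkpoints, only Chek2 passed in either stage. In blastocysts, Chek2 (ENSMUSG00000029521.7, chromosome 5, 110839979 to 110874145) was measured at 7.79, 10.9, 17.4 and 12.1 FPKM in control and 22.4, 23.2, 22.3 and 24.3 in KD blastocysts. The KD libraries lay close together and above all control libraries (log2 fold change 0.94, standard error 0.19, adjusted p = 0.00251). In morulae, the values were 50.9, 45.5, 43.5 and 57.2 FPKM in control and 44.8, 52.8 and 47.8 in KD morulae and overlapped (0.10, adjusted p = 0.695). The difference between the KD effects of the 2 stages was 0.80 (standard error 0.25, adjusted p = 0.0484), and it did not pass in 13 of the 15 fits that leave out a library (adjusted p up to 0.121), nor without the filter (0.109).

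Its upstream kinase and the kinases of the other branch did not pass after KD. Atm encodes the kinase that answers to broken ends. Atm was measured at 27.4, 41.6, 19.8 and 33.3 FPKM in control and 38.2, 37.8 and 33.0 in KD 2-cell embryos, at 8.48, 10.2, 13.5 and 11.3 in control and 8.88, 6.55 and 10.8 in KD morulae, and at 9.46, 7.36, 8.41 and 7.58 in control and 10.1, 5.68, 6.60 and 6.07 in KD blastocysts. The KD and control libraries of Atm overlapped at all 3 stages, with log2 fold changes of 0.35, -0.18 and -0.20 (adjusted p = 0.841, 0.631 and 0.497). Its level fell by 1.38 on the log2 scale from the 2-cell stage to the morula in control embryos (adjusted p = 0.000355). Chek1 acts downstream of ATR. Chek1 was measured at 56.9, 59.8, 68.9 and 67.9 FPKM in control and 68.8, 55.5 and 71.0 in KD 2-cell embryos, at 22.2, 21.6, 20.7 and 25.2 in control and 21.9, 24.3 and 26.8 in KD morulae, and at 20.0, 21.0, 17.6 and 20.2 in control and 20.5, 23.4, 16.2 and 24.8 in KD blastocysts. Chek1 thus lay between 16.2 and 26.8 FPKM in all 15 libraries of morulae and blastocysts, with log2 fold changes after KD of 0.23 and 0.097 (adjusted p = 0.363 and 0.734).

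Atr, the kinase that answers to single-stranded DNA, stayed near the filter. Atr was measured at 1.19, 1.44, 0.808 and 1.54 FPKM in control and 2.21, 0.993 and 1.21 in KD 2-cell embryos, at 1.29, 1.14, 0.570 and 0.912 in control and 0.278, 0.733 and 0.603 in KD morulae, and at 1.52, 1.25, 1.17 and 1.61 in control and 0.762, 1.34, 1.22 and 1.13 in KD blastocysts. The groups overlapped at each stage. Atr was not tested in morulae, where its KD libraries were at or below 0.733 FPKM, and gave -0.18 in blastocysts (adjusted p = 0.413). Rad50 and Nbn encode subunits of the complex that binds broken ends. Rad50 was measured at 8.47, 11.6, 12.3 and 11.9 FPKM in control and 11.0, 9.81 and 9.54 in KD 2-cell embryos, at 3.66, 3.81, 7.15 and 4.03 in control and 2.21, 2.65 and 3.38 in KD morulae, and at 6.95, 8.49, 6.25 and 6.03 in control and 7.47, 7.76, 3.86 and 4.61 in KD blastocysts. The KD morulae lay below the control morulae for Rad50 by a small margin, overlapped with them after scaling and gave -0.47 (standard error 0.24, adjusted p = 0.211), and in blastocysts the groups overlapped (-0.22, adjusted p = 0.520). Nbn was measured at 5.67, 4.11, 4.65 and 5.29 FPKM in control and 5.37, 6.52 and 5.66 in KD 2-cell embryos, at 11.1, 9.51, 10.7 and 10.7 in control and 9.89, 7.67 and 8.91 in KD morulae, and at 5.51, 8.97, 8.31 and 6.03 in control and 4.72, 4.72, 5.56 and 6.59 in KD blastocysts. The groups of Nbn overlapped at each stage. Nbn rose to the morula by 0.95 and fell again by 0.59 on the log2 scale (adjusted p = 0.000145 and 0.00857), and gave -0.12 and -0.34 after KD (adjusted p = 0.631 and 0.160). Topbp1, which activates ATR, had means of 7.98 and 10.3 FPKM in control and KD morulae and of 5.43 and 7.42 in blastocysts, and did not pass (0.48 and 0.39, adjusted p = 0.0839 and 0.155).

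The genes of the chromatin response mark and read the chromatin around a break. Trp53bp1, whose protein directs breaks to end joining, shares 2130 exon bases, 15.0% of its own, with Tubgcp4 on the other strand, and its values are uncertain for that reason. Trp53bp1 was measured at 3.71, 3.85, 5.27 and 3.95 FPKM in control and 4.68, 4.40 and 4.10 in KD 2-cell embryos, at 1.17, 1.29, 0.812 and 0.975 in control and 1.33, 2.17 and 1.12 in KD morulae, and at 0.727, 1.57, 1.36 and 1.72 in control and 0.560, 0.860, 1.62 and 1.01 in KD blastocysts. Its groups overlapped at each stage, with 0.35 in morulae and -0.22 in blastocysts (adjusted p = 0.209 and 0.374). Rnf168, which extends the ubiquitin mark, and Rnf8 gave 0.041 and 0.10 in blastocysts (adjusted p = 0.875 and 0.753). Mdc1 had means of 0.578, 0.555, 0.697 and 0.880 FPKM in control and KD morulae and control and KD blastocysts, below the filter. In control embryos, Trp53bp1 and Rnf168 fell from the 2-cell stage to the morula by 1.33 and 1.24 on the log2 scale (adjusted p = 3.18e-06 and 1.58e-05).

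In homologous recombination, Rad51b, Rad54l, Xrcc2, Xrcc3 and Rad52 passed at one stage or both. Rad51b (ENSMUSG00000059060.15, chromosome 12, 79297282 to 79814690) was at 0.938, 0.672, 0.803 and 0.687 FPKM in control and 1.01, 0.452 and 0.650 in KD 2-cell embryos, and lower at the next stage, with 0.211, 0.0360, 0.224 and 0.336 FPKM in control and 0.0451, 0.146 and 0.113 in KD morulae. Later, it was at 3.34, 3.50, 3.09 and 1.70 FPKM in control and 0.278, 0.408, 0.603 and 0.398 in KD blastocysts. Every KD blastocyst library lay below every control blastocyst library and above every KD morula library, and 3 of the 4 lay above the control morulae, which ended at 0.336 FPKM. The log2 fold change was -1.44 (standard error 0.19, adjusted p = 0.000180). Rad51b reached the filter in blastocysts through its control libraries alone. With a pseudocount of 1, morula levels this low leave hardly any room for a KD effect, so that no difference between the stages can be read from Rad51b.

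Rad54l encodes a motor protein that moves along DNA (ENSMUSG00000028702.15, chromosome 4, 116094264 to 116123690). It was at 4.14, 3.31, 5.48 and 4.37 FPKM in control and 2.30, 1.55 and 1.87 in KD morulae, and at 6.34, 8.27, 13.0 and 10.3 FPKM in control and 2.42, 2.75, 4.55 and 2.92 in KD blastocysts. At both stages all KD libraries were below all control libraries. Its log2 fold change was -0.78 in morulae (standard error 0.19, adjusted p = 0.0236) and -1.31 in blastocysts (standard error 0.20, adjusted p = 0.000422), with a difference of -0.55 between them (adjusted p = 0.203). The morula result did not pass without control replicate 7 or 8 or KD replicate 1 or 2 (adjusted p up to 0.102), nor without the filter (adjusted p = 0.0898). It was also lost with a block for the replicate number (adjusted p = 0.136). Rad54l shares 1184 exon bases, 15.4% of its own, with Lrrc41 on the opposite strand, whose own log2 fold change was 0.15 in morulae and 0.25 in blastocysts (adjusted p = 0.637 and 0.468).

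Xrcc2 and Xrcc3 belong to the same role. Xrcc3 (ENSMUSG00000021287.12, chromosome 12, 111803192 to 111813873) fell in morulae, from 3.42, 1.93, 2.35 and 2.15 FPKM in control to 0.754, 0.753 and 0.768 in KD libraries, which were nearly equal and all below the controls (-0.89, standard error 0.16, adjusted p = 0.00771). Xrcc3 reached the filter in morulae through its control libraries alone. It was at 1.07, 1.81, 2.75 and 1.55 FPKM in control and 1.49, 0.617, 1.47 and 1.24 in KD blastocysts, with overlap (-0.32, adjusted p = 0.226), and the difference between stages was 0.56 (adjusted p = 0.159). Xrcc2 (ENSMUSG00000028933.11, chromosome 5, 25689812 to 25705825) was at 2.16, 1.30, 1.32 and 1.35 FPKM in control and 0.690, 0.892 and 0.451 in KD morulae, and at 1.12, 2.11, 2.06 and 1.23 FPKM in control and 0.580, 0.817, 1.10 and 0.536 in KD blastocysts. Its KD libraries were below its control libraries at both stages, by a small margin in blastocysts. It gave -0.53 in morulae (standard error 0.16, adjusted p = 0.0564), where it passed in some alternatives, and -0.57 in blastocysts (standard error 0.17, adjusted p = 0.0216), where the call was lost without control replicate 4 or 5, or KD replicate 1 or 6 (adjusted p up to 0.0651), and without the filter (0.0597).

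Rad52 (ENSMUSG00000030166.14, chromosome 6, 119902698 to 119922828) changed in the other direction. It was at 15.2, 10.4, 9.26 and 10.9 FPKM in control and 10.0, 10.4 and 9.93 in KD morulae, and at 3.27, 3.81, 3.39 and 3.19 FPKM in control and 8.49, 6.90, 8.80 and 9.03 in KD blastocysts. The KD blastocysts stood between the control groups of the 2 stages, above every control blastocyst and below every control morula. The log2 fold change was -0.022 in morulae (adjusted p = 0.937) and 1.08 in blastocysts (standard error 0.16, adjusted p = 0.000369), and their difference was 1.06 (standard error 0.21, adjusted p = 0.00346).

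Brca1, Brca2 and their partners did not pass after KD. Brca1 directs the resection of ends. Brca1 was measured at 2.31, 2.48, 3.04 and 2.86 FPKM in control and 2.82, 2.84 and 3.70 in KD 2-cell embryos, at 1.81, 1.22, 1.17 and 1.35 in control and 1.30, 1.05 and 0.771 in KD morulae, and at 1.51, 2.25, 3.29 and 2.15 in control and 1.47, 1.29, 1.63 and 1.92 in KD blastocysts. The control and KD libraries of Brca1 overlapped at each stage (-0.16 in morulae and -0.33 in blastocysts, adjusted p = 0.511 and 0.159). For Brca2, whose control 2-cell embryos and morulae are given above, the KD libraries had 103, 56.6 and 103 FPKM as 2-cell embryos and 13.7, 11.5 and 17.1 as morulae. Blastocysts had 2.40, 4.93, 1.94 and 2.88 FPKM in control and 4.99, 3.37, 3.65 and 7.52 in KD libraries. Its log2 fold change was positive at both later stages, 0.63 (standard error 0.24, adjusted p = 0.111) and 0.55 (standard error 0.27, adjusted p = 0.124), with overlap at both. Palb2, which links the products of both, had means of 1.97 and 1.13 FPKM in control and KD morulae, which did not overlap (-0.40, adjusted p = 0.108). Bard1, Rad51c, Rad51d and Blm gave between -0.35 and 0.23 on the log2 scale at the 2 later stages and did not pass.

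The Fanconi proteins repair crosslinks between the strands. Fancd2 (ENSMUSG00000034023.16, chromosome 6, 113531682 to 113597017), which is ubiquitinated by the Fanconi core complex, was at 1.73, 0.964, 1.16 and 1.14 FPKM in control and 0.823, 0.663 and 0.596 in KD morulae, and at 3.28, 3.03, 2.97 and 1.89 FPKM in control and 0.507, 0.707, 0.705 and 0.744 in KD blastocysts. The KD libraries lay below the controls at both stages, and the level in KD blastocysts was below that of every control morula as well. Fancd2 reached the filter at both stages through its control libraries alone. The log2 fold change was -0.34 in morulae (standard error 0.15, adjusted p = 0.155) and -1.17 in blastocysts (standard error 0.18, adjusted p = 0.000395), and the difference was -0.83 (standard error 0.22, adjusted p = 0.0213, and 0.0591 without morula KD replicate 1). Fancd2 shares 257 exon bases with Fancd2os on the opposite strand, 3.24% of its own, and Fancd2os rose in KD blastocysts (0.85, adjusted p = 0.00447). Fancg (ENSMUSG00000028453.10, chromosome 4, 43002343 to 43010506), a subunit of the core complex, was at 0.742, 0.985, 2.15 and 1.57 FPKM in control and 0.137, 0.497, 1.33 and 0.297 in KD blastocysts. Its groups overlapped, KD replicate 5 was within the control range, and the call in blastocysts was at the threshold (-0.61, standard error 0.23, adjusted p = 0.0498). It was lost without control replicate 4 or without KD replicate 1, 4 or 6 (adjusted p up to 0.136), with a pseudocount of 0.1, with FPKM as deposited and without the filter (adjusted p = 0.0505, 0.0736 and 0.175). Fancg did not reach the filter without control replicate 5, control replicate 6 or KD replicate 5.

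The other Fanconi genes did not pass after KD in the fit reported, although Fancl and Fanci did in several alternatives. Fancl was at 13.0, 14.3, 15.9 and 14.2 FPKM in control and 8.82, 10.0 and 8.09 in KD morulae, and at 12.0, 7.76, 8.56 and 10.5 FPKM in control and 6.51, 6.31, 6.16 and 6.35 in KD blastocysts. The KD libraries were below the control libraries at both stages, with -0.51 (standard error 0.16, adjusted p = 0.0653) and -0.52 (standard error 0.19, adjusted p = 0.0525). Fanci, the partner of Fancd2, likewise had its KD below its control morulae (0.823, 0.496 and 0.506 FPKM against 1.27, 1.24, 1.77 and 2.54) and gave -0.68 (adjusted p = 0.0542). Fanca, Fancc, Fance and Fancm lay between -0.35 and 0.15 on the log2 scale at both stages, and Fancf was below the filter in both. Of these, Fanci shares 16.0% of its exon bases with Polg, Fancl 13.7% with Vrk2, Fanca 10.5% with Zfp276 and Fancc 16.4% with Gm16133, each on the opposite strand.

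End joining was the role with the lowest medians after KD, -0.77 over 3 genes in morulae and -1.07 over 3 in blastocysts. Xrcc5 (Ku80, ENSMUSG00000026187.9, chromosome 1, 72307421 to 72394952) was at 6.95, 5.78, 5.68 and 6.30 FPKM in control and 2.01, 2.63 and 2.60 in KD morulae, and at 15.4, 24.5, 25.4 and 19.6 FPKM in control and 6.40, 9.38, 8.08 and 10.0 in KD blastocysts. In control embryos the level rose from stage to stage, and in KD blastocysts it overlapped with the control morulae but not with the control blastocysts. Its log2 fold change was -0.97 in morulae (standard error 0.16, adjusted p = 0.00564) and -1.22 in blastocysts (standard error 0.18, adjusted p = 0.000431), with a difference of -0.27 (adjusted p = 0.512). Xrcc6 (Ku70, ENSMUSG00000022471.14, chromosome 15, 81987835 to 82040085), which forms a dimer with Ku80, was at 7.97, 8.44, 11.0 and 11.0 FPKM in control and 6.64, 4.77 and 5.76 in KD morulae, and at 17.6, 21.8, 19.4 and 16.4 FPKM in control and 10.1, 11.7, 10.4 and 12.1 in KD blastocysts. Here too no KD library reached a control library of its stage. The log2 fold change was -0.55 in morulae (standard error 0.20, adjusted p = 0.0923) and -0.70 in blastocysts (standard error 0.16, adjusted p = 0.00557). Xrcc6 shares 7.69% of its exon bases with Desi1 on the opposite strand, which gave 0.20 in blastocysts (adjusted p = 0.449).

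Xrcc4 (ENSMUSG00000021615.13, chromosome 13, 89774027 to 90089608), the partner of DNA ligase IV, was at 5.78, 8.67, 11.8 and 7.97 FPKM in control and 3.31, 2.70 and 7.19 in KD morulae, and at 21.9, 17.0, 15.9 and 17.0 FPKM in control and 11.0, 9.37, 5.31 and 6.89 in KD blastocysts. Morula KD replicate 6 lay within the control range and the other KD morulae below it, while in blastocysts all KD libraries were below all control libraries. The values were -0.77 in morulae (standard error 0.32, adjusted p = 0.132) and -1.07 in blastocysts (standard error 0.25, adjusted p = 0.00587). Lig4, the ligase itself, was at 0.675, 0.644, 0.672 and 0.384 FPKM in control and 0.454, 0.415 and 0.507 in KD morulae, and at 0.465, 0.273, 0.582 and 0.578 FPKM in control and 0.390, 0.201, 0.338 and 0.294 in KD blastocysts, below the filter. At the 2-cell stage, Xrcc5 and Xrcc6 had been at 0.661, 1.03, 1.20 and 2.28 FPKM (Xrcc5) and 1.69, 0.914, 2.55 and 2.69 FPKM (Xrcc6) in control embryos, so that these 2 genes rose by 1.69 and 1.88 to the morula (adjusted p = 5.31e-06 and 8.56e-06).

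Mismatch and base excision repair held the other genes that rose. Xrcc1 (ENSMUSG00000051768.9, chromosome 7, 24546289 to 24573440) was at 25.8, 14.0, 10.3 and 8.25 FPKM in control and 10.6, 9.10 and 7.67 in KD morulae, and at 1.85, 3.70, 4.98 and 3.86 FPKM in control and 7.87, 5.21, 14.8 and 10.6 in KD blastocysts. The KD blastocysts were all above the control blastocysts and overlapped with the control morulae. The log2 fold change was -0.39 in morulae (standard error 0.27, adjusted p = 0.356) and 1.18 in blastocysts (standard error 0.26, adjusted p = 0.00401), and the difference was 1.54 (standard error 0.40, adjusted p = 0.0202, and 0.0890 without the filter). Ung (ENSMUSG00000029591.14, chromosome 5, 114130386 to 114139323) was at 42.2, 23.9, 14.8 and 13.5 FPKM in control and 22.0, 16.2 and 16.2 in KD morulae, and at 2.40, 5.27, 7.16 and 4.85 FPKM in control and 12.7, 6.51, 19.2 and 10.6 in KD blastocysts. KD replicate 4 was below control replicate 5 in FPKM as deposited, and the groups were apart only after scaling. Ung gave -0.12 in morulae (adjusted p = 0.817) and 1.15 in blastocysts (standard error 0.28, adjusted p = 0.00692, and 0.0532 without the filter), with a difference of 1.23 (adjusted p = 0.0780). In Xrcc1, Ung and Rad52, morula control replicate 1 had the highest control value.

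Parp1, which senses single-strand breaks, did not pass after KD. Parp1 was measured at 8.06, 7.78, 10.2 and 9.66 FPKM in control and 8.94, 9.44 and 7.07 in KD 2-cell embryos, at 32.7, 27.2, 24.1 and 19.0 in control and 29.5, 28.7 and 23.7 in KD morulae, and at 19.7, 18.7, 14.2 and 16.2 in control and 16.4, 16.1, 24.5 and 19.9 in KD blastocysts. The groups overlapped at each stage, with 0.22 and 0.15 in morulae and blastocysts (adjusted p = 0.377 and 0.552), while the level rose by 1.41 from the 2-cell stage to the control morula (adjusted p = 4.00e-06). Lig3, the ligase bound by XRCC1, had means of 10.9, 9.25, 6.67 and 10.5 FPKM in control and KD morulae and control and KD blastocysts (0.54 in blastocysts, adjusted p = 0.0750). Lig3 shares 25.1% of its exon bases with Rffl on the opposite strand. Msh6, which binds mismatches, gave 0.41 and 0.25 (adjusted p = 0.0751 and 0.256), and Ogg1, which removes oxidised guanine, -0.74 and -0.38 (adjusted p = 0.0675 and 0.150).

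**Figure D2:**
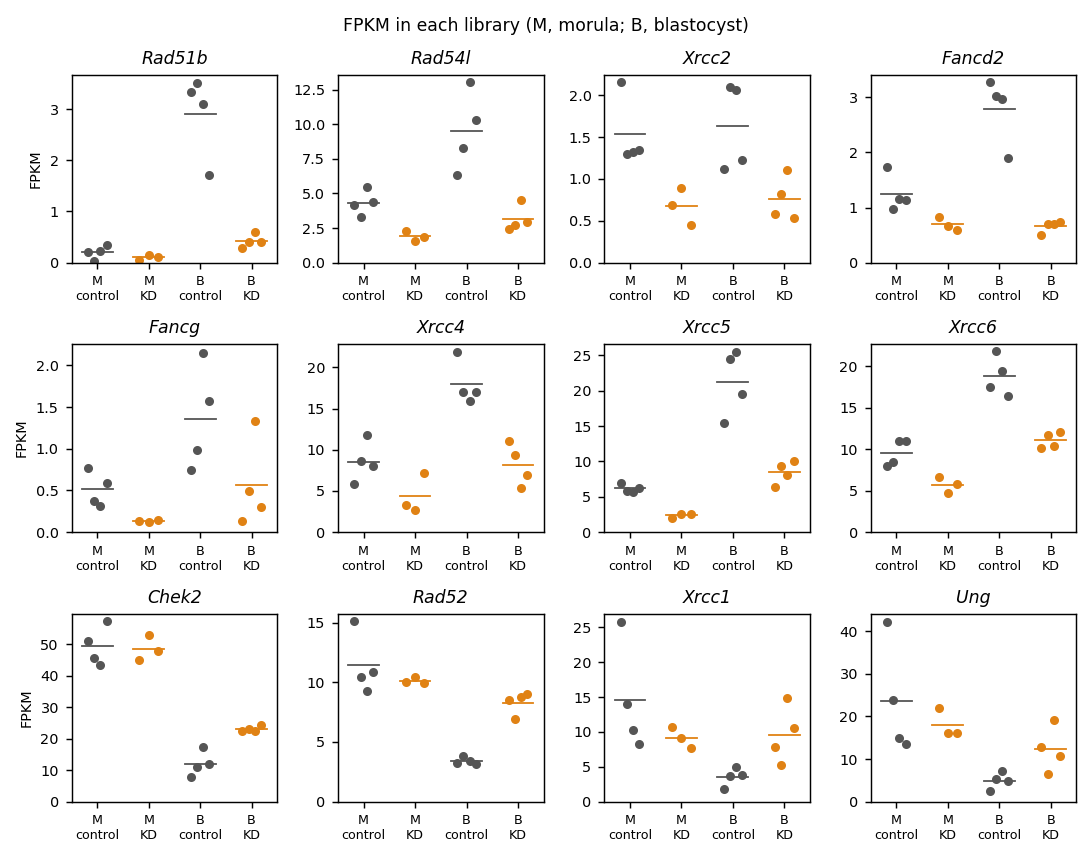
FPKM in each library of control (grey) and KD (orange) morulae and blastocysts for the 12 genes that passed in blastocysts, with a point for each library and a line at the group mean. In Rad51b, Rad54l, Xrcc4, Xrcc5 and Xrcc6 the KD blastocysts overlap with the control morulae and lie below all control blastocysts, and in Chek2 and Rad52 they lie above all control blastocysts and below all control morulae.

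The KD effect in blastocysts and the change from control morula to control blastocyst are given side by side for these 12 genes. Both use the 4 control blastocyst libraries, so that their directions are not independent of each other. Chek2, Rad52, Xrcc1 and Ung rose after KD by 0.94, 1.08, 1.18 and 1.15 on the log2 scale and had changed by -2.08, -1.55, -1.77 and -2.06 from control morula to control blastocyst. Rad51b, Rad54l, Fancd2, Xrcc4, Xrcc5 and Xrcc6 changed by -1.44, -1.31, -1.17, -1.07, -1.22 and -0.70 after KD and by 1.64, 0.87, 0.70, 0.93, 1.53 and 0.82 between the control stages. Xrcc2 gave -0.57 after KD and -0.0084 between the stages (adjusted p = 0.969), and Fancg was not tested between them. Compared with the control morulae, which share no library with the KD blastocysts, the range of the KD blastocysts overlapped for 2 of the 4 genes that rose and for 6 of the 8 that fell, and it lay below the control morulae for the remaining 2 (Chek2 and Rad52) and 2 (Xrcc2 and Fancd2). Among all genes that passed in KD blastocysts, 65.1% of the 1977 that rose and 54.3% of the 2344 that fell overlapped with the control morulae, so that overlap is common and no result about these genes.

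The difference of the KD effect between blastocysts and morulae was tested as an interaction in limma over the 15 libraries of both stages. Of 39 genes tested, 3 passed with a higher value in blastocysts (Chek2, Rad52 and Xrcc1) and 2 with a lower value (Fancd2 and Rad51b, the latter with all morula libraries under the filter), beside 5.43% and 6.3% of all 12727 genes. The medians were -0.053 over these genes and -0.0085 over all genes tested. For Xrcc3, Xrcc5, Xrcc6, Xrcc4, Rad54l and Ung, which passed at one stage or at both, the difference itself did not pass (adjusted p = 0.159, 0.512, 0.668, 0.668, 0.203 and 0.0780).

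Further genes of the same pathways were taken from lists. Among 22 partners in break sensing and checkpoints, 2 higher (9.09%) and 4 lower (18.2%) of 22 tested in morulae and 3 higher (13.6%) and 4 lower (18.2%) of 22 tested in blastocysts passed (medians -0.090 and -0.16). All genes tested had 4.22% and 9.05% higher and lower in morulae and 16.7% and 19.8% in blastocysts, and a count near these shares, here or in the lists below, is not a result about the list. Brcc3, which trims ubiquitin chains in the BRCA1-A complex, had the largest fall at both stages, with 7.91, 14.0, 15.8 and 13.2 FPKM in control and 4.40, 3.71 and 2.68 in KD morulae, and 29.3, 23.5, 21.7 and 19.5 FPKM in control and 6.16, 6.27, 3.95 and 5.44 in KD blastocysts. Its libraries did not overlap at either stage (-1.46 and -1.92 on the log2 scale, adjusted p = 0.00771 and 7.63e-05). Babam2, another subunit of that complex, fell in blastocysts (-1.11, adjusted p = 0.000171). Rad9a, a part of the clamp that activates ATR, fell in morulae and rose in blastocysts. It was at 10.7, 9.36, 6.90 and 9.29 FPKM in control and 3.60, 4.32 and 4.55 in KD morulae, and at 4.41, 7.15, 12.5 and 7.18 FPKM in control and 13.1, 11.3, 20.3 and 17.6 in KD blastocysts. The KD libraries of Rad9a were below all control morulae, whereas in blastocysts KD replicate 4 lay below control replicate 5 and the other KD libraries above all controls, with log2 fold changes of -0.85 and 0.96 and a difference of 1.77 (standard error 0.31, adjusted p = 0.00148). Rbbp8, which starts resection, had the largest rise in morulae (0.55, adjusted p = 0.0364).

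Of 21 partners in homologous recombination, 0 higher and 4 lower (20.0%) of 20 tested in morulae and 0 higher and 4 lower (21.1%) of 19 tested in blastocysts passed (medians -0.18 and -0.11). The blastocyst share that fell is near the 19.8% of all genes. Rpa1 and Rpa3, subunits of the protein that coats single-stranded DNA, fell at both stages, Rpa3 by the most in blastocysts (-1.33, adjusted p = 0.00122) and Rpa1 by the most in morulae (-0.86, adjusted p = 0.0211). For Rpa3, the blastocyst libraries had 189.7, 126, 95.0 and 115 FPKM in control and 44.9, 55.7, 45.9 and 52.5 in KD blastocysts. The 10 partners in crosslink repair had 0 higher and 2 lower (25.0%) of 8 tested in morulae and 0 higher and 1 lower (12.5%) of 8 tested in blastocysts, with the largest changes in Faap20 in morulae and Fancb in blastocysts (-0.65 and -0.67). Of the 10 partners in end joining, 0 higher and 2 lower (22.2%) of 9 tested passed in blastocysts, Aplf and Paxx (-0.85 and -0.84, adjusted p = 0.0112 and 0.00128). The medians in blastocysts were 0.11 for crosslink repair and 0.065 for end joining.

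Of the 19 partners in base excision and single-strand break repair, 0 higher and 1 lower (6.67%) of 15 tested in morulae and 1 higher (6.25%) and 3 lower (18.8%) of 16 tested in blastocysts passed (medians -0.33 and -0.23). Neil1, a glycosylase for oxidised bases, fell by the most at both stages (-0.88 and -1.27, adjusted p = 0.00793 and 0.00103), and Parg rose in blastocysts (1.00, adjusted p = 0.0302). Of the 20 genes of nucleotide excision repair, which removes bulky lesions, 0 higher and 3 lower (17.6%) of 17 tested and 3 higher (17.6%) and 3 lower (17.6%) of 17 tested passed (medians -0.18 and 0.25). Cetn2, a subunit of the damage sensor with XPC, fell at both stages (-0.85 and -1.66), as did Ercc1, a subunit of the nuclease that cuts beside the lesion (-0.72 and -1.22, adjusted p = 0.0162 and 0.000363). Its nuclease partner Ercc4 rose in blastocysts (0.85, adjusted p = 0.00754). Ercc1 was at 19.5, 25.8, 18.6 and 19.5 FPKM in control and 9.79, 7.95, 7.53 and 7.81 in KD blastocysts, and Ercc4 at 0.809, 1.24, 1.82 and 1.62 FPKM in control and 2.19, 2.33, 5.26 and 3.66 in KD blastocysts. The control and KD libraries were apart for both genes.

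Among the lists of pathways, the largest median was that of 25 genes of the p53 damage response, which act downstream of ATM and CHEK2. In morulae, 6 higher (28.6%) and 0 lower of 21 tested passed (median 0.53), and in blastocysts 20 higher (90.9%) and 0 lower of 22 tested (median 1.10), beside medians of 0.015 and 0.0047 over all genes tested. Of all genes, 4.22% were higher and 9.05% lower in morulae, and 16.7% and 19.8% in blastocysts. The list was chosen with earlier results of these data known, so that its counts are not independent of them. The summed level of the list was 368, 236, 246 and 233 FPKM in control and 472, 508 and 385 in KD morulae, where control replicate 1 stood well above the other controls and below every KD library. Of the genes that passed, 5 changed over 2-fold in morulae and 14 in blastocysts, among them Cdkn1a, the p21 inhibitor of the cell cycle, at both stages. Of all genes, 1% and 6.1% passed as higher and over 2-fold at these stages. Plk2, a kinase induced by p53, had the largest change in blastocysts. It was at 9.00, 3.73, 4.93 and 6.53 FPKM in control and 14.4, 19.8 and 16.6 in KD morulae, and at 1.78, 2.87, 4.26 and 4.35 FPKM in control and 36.4, 18.3, 26.4 and 25.6 in KD blastocysts. The libraries were apart at both stages, and Plk2 gave 1.51 and 2.70 (adjusted p = 0.00454 and 1.39e-05), with a difference of 1.14 (standard error 0.36, adjusted p = 0.0461). Phlda3, an inhibitor of AKT, was at 0.925, 3.14, 2.81 and 2.91 FPKM in control and 17.4, 5.52, 20.6 and 14.2 in KD blastocysts (2.11, adjusted p = 0.000541).

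The remaining genes of that list over 2-fold in blastocysts were Sesn2, Mdm2, Ei24, Eda2r, Pmaip1, Plk3, Aen, Ccng1, Trp53inp1, Btg2 and Gadd45a, with log2 fold changes between 1.02 and 1.67. Sesn2, a stress protein induced by p53, was at 0.175, 0.458, 0.815 and 1.03 FPKM in control and 2.82, 2.80, 6.94 and 4.44 in KD blastocysts, and Pmaip1, which encodes the pro-apoptotic protein NOXA, at 1.81, 3.25, 3.29 and 2.93 FPKM in control and 10.5, 6.48, 7.99 and 9.42 in KD blastocysts. For both, every KD library was above every control library. Among these genes, only Plk2 passed the test of the difference between the stages. Before, in 2-cell embryos, 17 genes of the list were tested and 0 passed.

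**Figure D3:**
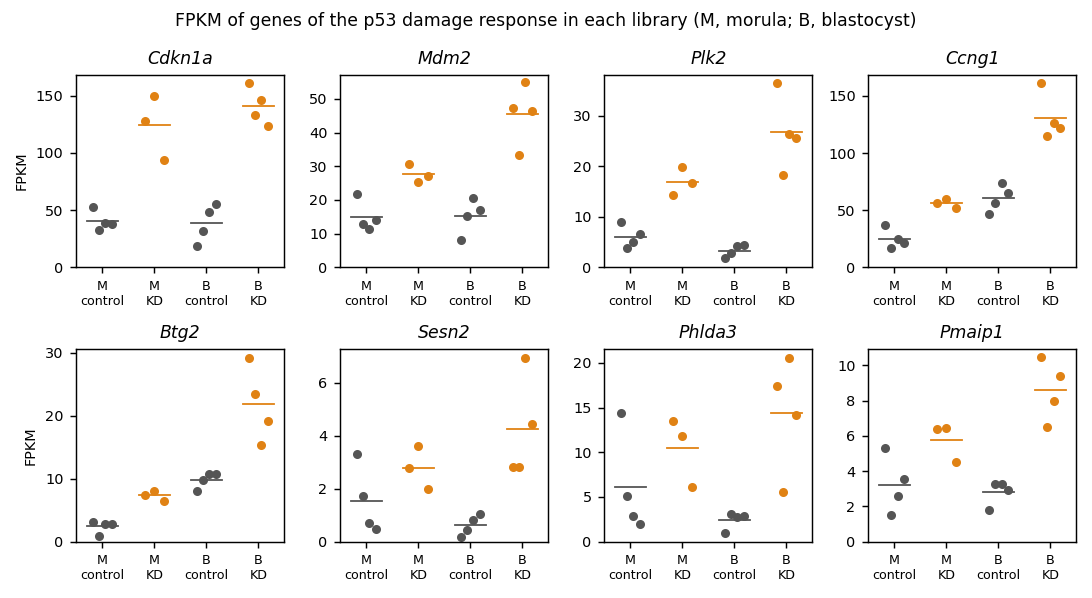
FPKM in each library of control (grey) and KD (orange) morulae and blastocysts for 8 genes of the p53 damage response, chosen for the plot after their values were seen, with a point for each library and a line at the group mean. The KD blastocysts lie above the control blastocysts in each of the 8 genes.

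Because homologous recombination is active in S and G2 phase, 23 genes of S phase were set beside the repair genes. In morulae, 0 higher and 2 lower (8.70%) of 23 tested passed (median -0.15), and in blastocysts 5 higher (21.7%) and 6 lower (26.1%) of 23 tested (median 0.19), shares near those of all genes except for the rise in morulae, where 0 passed (4.22% and 9.05% of all genes in morulae and 16.7% and 19.8% in blastocysts). Gins2, a subunit of the replicative helicase, fell in blastocysts (-1.82, adjusted p = 6.66e-05), and Ccne1, the cyclin that opens S phase, rose (1.38, adjusted p = 0.00223). Gins2 was at 13.7, 16.9, 11.4 and 10.2 FPKM in control and 3.07, 3.00, 2.30 and 3.33 in KD blastocysts, and Ccne1 at 13.7, 37.4, 42.0 and 32.0 FPKM in control and 95.5, 54.1, 87.4 and 75.1 in KD blastocysts. Neither gene overlapped between the groups. The summed level of the 23 genes was 1067, 1215, 1330.2 and 1121 FPKM in control and 1241, 1134, 1234 and 1169.7 in KD blastocysts, with overlap, and 1431, 1299.6, 1584 and 1486 in control and 1156, 1124 and 1265 in KD morulae, where every KD library was below every control library as deposited and the groups overlapped after scaling. The part of the cell cycle in the values of the repair genes was not tested.

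Promoters of 37 of the 42 genes were found in the RefSeq table on GRCm38.p6, which holds 300 bases around a gene start, and 4 of the 37 had several entries. Rad50, Nbn, Rad51d, Xrcc2 and Fancd2 were missing. Motifs were searched on both strands. The E2F motif TTTCCCGC was present in 8 of the 37 genes (21.6%), in 1.24% of all 27025 genes of the table and in 1.07% of its 32851 promoters. Of its variants, TTTGGCGC was in 0 of the 37, in 0.585% of all genes and 0.514% of all promoters, and TTTCGCGC in 2 (Topbp1 and Rad51c, 5.41%), 0.374% and 0.323%. The NF-Y motif CCAAT was in 20 of the 37 (54.1%, all genes 41.1%, all promoters 37.4%), the ETS motif CCGGAAG in 10 (27.0%, all genes 9.93%, all promoters 8.86%) and the SP motif GGGCGG in 27 (73.0%, all genes 38.2%, all promoters 35.7%). The reverse complement of TTTCCCGC can share bases with GGGCGG, which it did in Rad51c. A match describes the sequence and says nothing on whether a factor binds there.

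The 8 promoters with TTTCCCGC belonged to genes of all roles and to genes that rose (Chek2), fell (Fancg and Xrcc6) or did not pass in KD blastocysts, beside Mdc1, which was not tested. They are shown as 60 bases around the match, which is in capitals, as TTTCCCGC or its reverse complement, each written 5′ to 3′ on the strand of the gene.
Chek2, chr5:110839805-110839864, + strand: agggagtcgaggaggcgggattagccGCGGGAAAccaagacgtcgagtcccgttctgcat
Mdc1, chr17:35841456-35841515, + strand: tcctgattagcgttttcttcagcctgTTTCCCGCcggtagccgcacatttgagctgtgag
Brca2, chr5:150522427-150522486, + strand: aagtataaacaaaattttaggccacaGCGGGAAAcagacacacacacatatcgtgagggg
Bard1, chr1:71103148-71103207, - strand: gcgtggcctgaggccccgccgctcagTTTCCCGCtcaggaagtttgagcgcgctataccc
Rad51c, chr11:87404926-87404985, - strand: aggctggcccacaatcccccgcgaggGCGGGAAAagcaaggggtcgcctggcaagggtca
Fancg, chr4:43010320-43010379, - strand: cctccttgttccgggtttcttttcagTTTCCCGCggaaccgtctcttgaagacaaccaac
Xrcc6, chr15:82016297-82016356, + strand: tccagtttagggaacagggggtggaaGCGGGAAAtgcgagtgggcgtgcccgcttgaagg
Msh6, chr17:87975039-87975098, + strand: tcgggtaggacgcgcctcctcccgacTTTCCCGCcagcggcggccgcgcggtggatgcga

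The whole promoters of 4 genes are given because these genes moved in opposite directions in KD blastocysts, Xrcc5 and Xrcc6 down and Chek2 and Rad52 up. The entry of Xrcc6, 82016119 to 82016418, lies inside the span of the gene given above (81987835 to 82040085) and not at its start. Capitals mark each match to any of the motifs above on either strand. GGGCGG was in Xrcc6 and not in Xrcc5, and TTTCCCGC was in Xrcc6 and in Chek2.
Xrcc5, chr1:72307171-72307470, + strand: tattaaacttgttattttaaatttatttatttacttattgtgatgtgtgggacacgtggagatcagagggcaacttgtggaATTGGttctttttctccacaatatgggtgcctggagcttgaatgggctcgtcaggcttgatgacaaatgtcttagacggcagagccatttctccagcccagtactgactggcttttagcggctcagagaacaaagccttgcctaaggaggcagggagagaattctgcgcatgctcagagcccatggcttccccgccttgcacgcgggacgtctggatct
Xrcc6, chr15:82016119-82016418, + strand: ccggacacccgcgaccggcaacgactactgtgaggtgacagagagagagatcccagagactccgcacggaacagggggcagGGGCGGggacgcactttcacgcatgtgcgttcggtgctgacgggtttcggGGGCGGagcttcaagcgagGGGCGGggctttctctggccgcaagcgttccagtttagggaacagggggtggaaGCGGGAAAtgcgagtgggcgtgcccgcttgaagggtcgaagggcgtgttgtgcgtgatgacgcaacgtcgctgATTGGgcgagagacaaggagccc
Chek2, chr5:110839733-110840032, + strand: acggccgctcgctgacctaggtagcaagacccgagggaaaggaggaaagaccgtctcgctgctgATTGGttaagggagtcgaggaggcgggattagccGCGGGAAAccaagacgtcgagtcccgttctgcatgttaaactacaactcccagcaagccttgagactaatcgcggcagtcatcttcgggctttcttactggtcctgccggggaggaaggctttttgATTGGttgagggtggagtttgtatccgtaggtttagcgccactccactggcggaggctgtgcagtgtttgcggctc
Rad52, chr6:119902448-119902747, + strand: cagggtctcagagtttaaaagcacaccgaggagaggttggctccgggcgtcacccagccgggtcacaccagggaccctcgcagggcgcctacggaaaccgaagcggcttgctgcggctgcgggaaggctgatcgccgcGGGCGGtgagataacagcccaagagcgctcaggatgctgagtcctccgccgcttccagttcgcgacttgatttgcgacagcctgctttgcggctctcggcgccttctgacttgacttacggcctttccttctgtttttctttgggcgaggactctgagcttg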

How the data were processed

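Smart-seq2 was used to make the libraries from polyadenylated RNA, with 16 to 18 cycles of preamplification and paired reads of 150 bp. The values are FPKM per gene as deposited by the authors, who ran STAR on mm10 and StringTie 2.1.4. Their own calls, from DESeq2 1.30.1 on featureCounts 1.6.2 counts, were not used here. No value column was left without a sample (0). Of the 55335 gene identifiers, 54587 matched GENCODE release M21 on GRCm38 with their version.

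Each library was scaled by the median ratio of its genes to their geometric means, taken over genes detected in every library of the comparison, and the factors were centred on 1 (0.943 to 1.09 in 2-cell embryos, 0.912 to 1.17 in morulae and 0.893 to 1.12 in blastocysts). A pseudocount of 1 was added before taking log2, so that fold changes of low genes are understated. Genes were kept if 3 or more libraries of a comparison reached 1 FPKM, and were fitted with limma 3.58.1 in R 4.3.3 (lmFit, eBayes with trend, both directions, no covariate), with Benjamini-Hochberg adjustment over all genes tested. A gene passed at an adjusted p under 0.05. FPKM printed per library are as deposited, and overlap of groups refers to these values unless scaling is named. Figures were drawn with matplotlib 3.10.9, and the steps were tested on simulated data.

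The number of reads is unknown. A smallest step was sought in the product of FPKM and length of genes with 1 exon. Only between 16.8% and 26.8% of low values lay within 2% of whole steps, and most did not, so that the estimate is rough. The inverse of the step, a relative depth, was 18.0 to 27.3 in control and 20.7 to 26.9 in KD 2-cell embryos, 21.0 to 28.8 in control and 20.1 to 28.1 in KD morulae, and 14.8 to 22.2 in control and 17.3 to 21.3 in KD blastocysts. The errors printed come from the variation among libraries.

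The genes, lists and markers were chosen with earlier results of these data known. Named with values per library were genes passing after KD, the 3 largest rises and falls between control stages, and Atm, Atr, Chek1, Chek2, Brca1, Brca2, Trp53bp1, Parp1, Rad50 and Nbn. For some of these genes, not every stage is printed. Genes of the lists were named after their values were seen, as those over 2-fold or with the largest changes, and some results of the lists are not reported here. No use of strand is stated for the quantification, so that reads of overlapping genes on opposite strands cannot be told apart.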

Additional observations from a re-analysis of the deposited data

Results flagged for a closer look

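In groups of 4 libraries, a library was singled out where its gap to the nearest other library, on the log scale after scaling, took up most of the range of the group (the critical share of Dixon's test for 4 values). This was so in 13 of 168 combinations of gene and group, where chance alone gives about 1 in 20. At the 2-cell stage these were Rad50 in 2-cell control 1 (8.47 FPKM, the others 11.6 to 12.3) and Trp53bp1 in 2-cell control 4 (5.27 FPKM, the others 3.71 to 3.95). In morulae they were Chek2 in morula control 8 (57.2 FPKM, the others 43.5 to 50.9), Rad51d in morula control 2 (2.42 FPKM, the others 3.68 to 4.15), Blm in morula control 7 (2.37 FPKM, the others 2.98 to 3.67), Fanca in morula control 7 (1.48 FPKM, the others 1.03 to 1.27) and Msh6 in morula control 8 (14.0 FPKM, the others 16.2 to 19.0). In blastocysts they were Fanci in blastocyst control 5 (2.87 FPKM, the others 0.900 to 1.07), Lig4 in blastocyst control 4 (0.273 FPKM, the others 0.465 to 0.582), Atm in blastocyst KD 1 (10.1 FPKM, the others 5.68 to 6.60), Chek2 in blastocyst KD 5 (22.3 FPKM, the others 22.4 to 24.3), Nbn in blastocyst KD 6 (6.59 FPKM, the others 4.72 to 5.56) and Topbp1 in blastocyst KD 1 (4.60 FPKM, the others 7.97 to 8.86).

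For 5 genes, the test of the difference of the KD effect between the stages passed. The effect in blastocysts minus that in morulae was 0.80 for Chek2, -1.32 for Rad51b, 1.06 for Rad52, -0.83 for Fancd2 and 1.54 for Xrcc1, on the log2 scale. All morula libraries of Rad51b were at or below 0.336 FPKM, where a pseudocount of 1 leaves hardly any room for an effect, so that its value does not show an effect that differs between the stages.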

How the results depend on the processing

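None of the 42 genes that passed changed sign under any alternative run for its comparison. For H2afz, the markers and the genes of the lists, calls under the alternatives are not given here. Of the 12 genes that passed in blastocysts, 9 passed under every alternative, the exceptions being Xrcc2, Fancg and Ung, and of the 3 in morulae 2, the exception being Rad54l. Of the differences between the stages, that of Rad52 did, and that of Rad51b is left aside because its morula levels leave hardly any room for an effect. In morulae, 8 of the 42 genes fell with the FPKM as deposited in place of 3, 2 with no filter, 4 with a pseudocount of 0.1 and 5 with a term for low against high replicate numbers. Among genes that did not pass in the fit reported, Xrcc2 passed as lower in morulae with FPKM as deposited and with that term, and Fanci with these, with the pseudocount of 0.1 and without control replicate 1. Fancl passed as lower in morulae with FPKM as deposited and without control replicate 1, and in blastocysts with FPKM as deposited, with that term and without control replicate 4 or 5. Xrcc6 and Ogg1 passed as lower in morulae with FPKM as deposited, and without control replicate 1 (Xrcc6) or 2 (Ogg1). Xrcc4 did so in morulae without KD replicate 6. In blastocysts, Topbp1 passed as higher without KD replicate 1 and Lig3 without KD replicate 4. The scaling moved the median of all genes from -0.085 to 0.015 in morulae and from 0.11 to -0.0085 in the difference of the KD effect, and 31.8% of all genes passing in morulae were higher with it and 15.3% without. With no filter, 1 gene in place of 3 passed with a higher difference, and in morulae 129 and 283 of all genes passed in place of 464 and 995.

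With each library left out in turn, 2 to 6 genes fell and 0 rose in morulae, 6 to 8 fell and 4 to 5 rose in blastocysts, and 0 passed at the 2-cell stage in either direction. The difference of the KD effect was higher for 2 to 4 and lower for 1 to 2 genes. Between control stages, 16 to 19 rose and 15 to 17 fell to the morula, and 7 to 8 rose and 10 to 12 fell to the blastocyst. These fits have fewer libraries.

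The numbers of the libraries were not taken as pairs: same-numbered control and KD libraries had correlations of their deviations from the group means between 0.0147 and 0.214 at the 2-cell stage (3 pairs), 0.0943 and 0.181 in morulae (2 pairs) and -0.110 and 0.353 in blastocysts (4 pairs), and not every library correlated best with its own number. Where both numbers were low (1 or 2) or both higher, the correlations were 0.0943 to 0.346 in morulae and -0.0211 to 0.214 at the 2-cell stage, and otherwise -0.278 to -0.0944 and -0.237 to 0.0102. In blastocysts, they were -0.341 to 0.353 in the same range of numbers and -0.381 to 0.401 otherwise. What the numbers stand for is not stated. With a term for low against high numbers, 777 and 1261 of all genes passed in morulae in place of 464 and 995. With the replicate block, 4 genes fell and 0 rose in morulae, where Rad54l was lost (adjusted p = 0.136) and Xrcc4 and Xrcc1 passed as lower, 9 fell and 5 rose in blastocysts, with Fancl and Lig3 added, and 0 passed at the 2-cell stage. The cause of these changes was not tested.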
